A study of Mus musculus with 15 samples.

Results

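10 genes used as markers of endoderm, *Sox17*, *Sox7*, *Gata4*, *Gata6*, *Foxa2*, *Hnf4a*, *Dab2*, *Cubn*, *Afp* and *Pdgfra*, were followed sample by sample from mouse embryonic stem cells (ESCs) through epiblast-like cells (EpiLCs) to primordial germ cell-like cells (PGCLCs) at days 2, 4 and 6 of induction. They were taken by name, and all 10 were found among the 55536 genes of the count table. *Sox17* and *Sox7* are SOX factors, *Gata4* and *Gata6* zinc-finger GATA factors, *Foxa2* a forkhead factor and *Hnf4a* a nuclear receptor. *Dab2* is an endocytic adaptor, *Cubn* encodes the scavenger receptor cubilin, *Afp* the secreted alpha-fetoprotein and *Pdgfra* a receptor tyrosine kinase.

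The study turned ESCs into PGCLCs by switching on transcription factors from transgenes, and RNA was sequenced along the way. Each of the 5 groups holds 3 samples, 15 in all. The labels number the replicates and do not say whether they were separate cultures. The p-values below therefore set differences between groups only against the spread between these samples, which may not be that between cultures.

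All 5 groups carried the same transgenes. *Prdm1*, *Prdm14*, *Tfap2c* and *Nanog* were under doxycycline (Dox) control, together with the Dox-dependent activator rtTA, in Stella-eGFP reporter ESCs, and cells with these insertions were grown up as clonal lines. The ESC samples were naive cells kept in 2i+LIF without Dox. The EpiLC samples had spent 48 h in Activin A, bFGF and KSR, also without Dox. The D2PGCLC, D4PGCLC and D6PGCLC samples were Stella-eGFP+ cells taken from aggregates of EpiLCs after 2, 4 or 6 days with 2 µg/ml Dox. ESCs and EpiLCs were not described as sorted.

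Total counts, in the order of replicates 1, 2 and 3 used throughout, were 27453967, 22555021 and 29790085 in ESCs and 27839735, 32594579 and 29112257 in EpiLCs. They were 33433779, 28907803 and 34808685 in D2PGCLCs, 32146690, 33311717 and 34245229 in D4PGCLCs, and 34476646, 42725681 and 32530096 in D6PGCLCs. A gene with 3 counts in the shallowest of these samples stood at 0.133 CPM (counts scaled to a common library total), which bounds what could be seen of the weakest genes.

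D6PGCLC replicate 1 stood apart from the other 14 samples. It had at least 1 count in 18061 genes, against 21103 to 24343 genes in the others. Only 529 genes had 1 to 3 counts in it, against 3338 to 4606 in the others. Its total, 34476646 counts, was within the range of the others. The labels do not say why, and the cause was not tested. A 0 in this sample, as for *Foxa2* and *Afp*, may therefore not measure absence. Results on day 6 that rest on this sample are given with and without it.

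**Figure D1:**
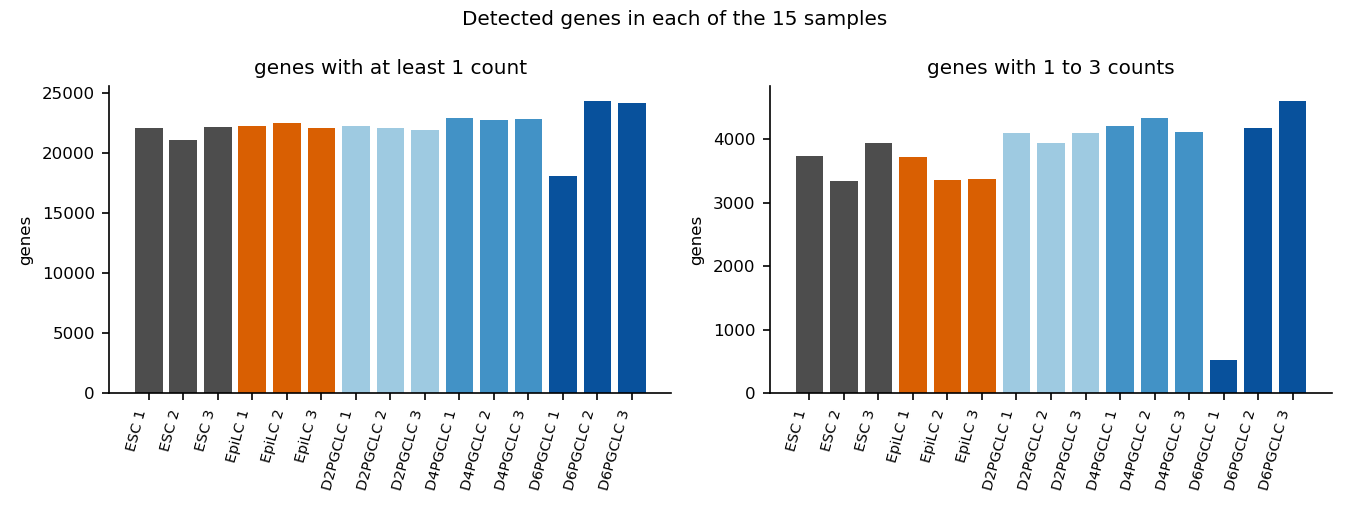
Genes with at least 1 count (left) and with 1 to 3 counts (right) in each of the 15 samples, by group and replicate. D6PGCLC replicate 1, with 18061 genes in the left panel, lies below all the others, which lie between 21103 and 24343.

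As background, the primitive endoderm arises beside the naive epiblast in the blastocyst under FGF signaling and forms the visceral and parietal endoderm of the yolk sacs, while the definitive endoderm arises later from the epiblast at gastrulation. GATA6 acts first in the primitive endoderm, followed by SOX17, GATA4 and SOX7, with PDGFRA on the cell surface. Visceral endoderm then takes up maternal protein through the receptor cubilin and the adaptor DAB2 and, under FOXA2 and HNF4A, secretes proteins such as AFP.

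The labels were checked against marker genes. The summed level of 4 EpiLC markers was 134.8 to 142.4 CPM in ESCs, and far higher in EpiLCs, 1823 to 1965, while the 9 PGCLC samples lay at 40.3 to 69.1. *Fgf5*, an EpiLC growth factor, had 1, 0 and 0 counts in ESCs and 1409, 1974 and 1546 in EpiLCs. The 8 PGCLC markers summed to 258.6 to 297.2 CPM in ESCs and EpiLCs and to 1277 to 1650 in PGCLCs. They include *Prdm1* and *Tfap2c*, which were also transgenes under Dox control, and *Dppa3*, so this sum is not independent of the design. *Dppa3*, which encodes Stella, the protein whose reporter marked the sorted cells, had 2634, 2305 and 2152 counts in EpiLCs and 14285, 13445 and 14522 at day 2. The 7 naive markers summed to 2428 to 2452 CPM in ESCs, and to 393.1 to 396.9 in EpiLCs against 1121 to 1546 in PGCLCs. Every sample had the markers of its label as ESC, EpiLC or PGCLC. These sums do not check the day given to each PGCLC sample.

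Levels below are CPM after TMM scaling, given as mean ± SD with n = 3 unless stated, and changes are log2 fold changes with their standard error (SE). Tests are edgeR's quasi-likelihood test over 18090 genes with Benjamini-Hochberg adjustment, and a gene is called where the adjusted p is under 0.05 and the change passes 1 on the log2 scale in either direction. Of the 10 genes, 9 passed the filter on low counts and were tested. *Afp* did not. In bulk RNA, fewer cells with a transcript and less of it per cell cannot be told apart, for any of the genes below.

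Of the 9 tested genes *Gata6* had the largest fitted rise in each of the 2 later steps. *Gata6* (ENSMUSG00000005836) had 3, 6 and 17 counts in ESCs, 17, 6 and 11 in EpiLCs and 13, 6 and 4 at day 2. It had 70, 59 and 53 counts in D4PGCLCs and 536, 257 and 282 in D6PGCLCs. The 9 samples up to day 2 were all low and overlapped with each other, all 3 day 4 samples lay above them, and all 3 day 6 samples lay above day 4. In mean level the order was D6PGCLC at 9.24 ± 4.35 CPM, D4PGCLC at 1.81 ± 0.303, EpiLC at 0.417 ± 0.227, ESC at 0.314 ± 0.234 and D2PGCLC at 0.244 ± 0.141. Only the last 3 of these were not separated beyond their spread.

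*Gata6* rose 7.39-fold from day 2 to day 4 (log2 2.86, SE 0.52, edgeR adjusted p = 0.00165) and 5.12-fold from day 4 to day 6 (log2 2.35, SE 0.41, edgeR adjusted p = 0.00124). Against EpiLCs the day 6 level was 22.2-fold higher (log2 4.48, edgeR adjusted p = 2.87e-07), and against ESCs 29.4-fold higher (log2 4.83, edgeR adjusted p = 2.08e-07). These day 6 comparisons share the same 3 samples and are set side by side. D6PGCLC replicate 1 was the highest, at 14.1 CPM against 5.66 and 7.99 in replicates 2 and 3. Without it the day 6 mean was 6.82 CPM and the changes were 1.91 against day 4, 4.05 against EpiLCs and 4.41 against ESCs, and all 3 calls were kept. Without ESC replicate 3, whose 17 counts were the most among ESCs, the change against ESCs was 5.65.

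*Gata4* (ENSMUSG00000021944), which acts after *Gata6* in the same lineage, followed another course. It had 108, 114 and 123 counts in ESCs, 21, 24 and 25 in EpiLCs and 15, 18 and 13 at day 2. In D4PGCLCs it had 23, 38 and 37 counts, and in D6PGCLCs 72, 94 and 66. ESCs were high in all 3 replicates and day 2 was the low point, and only EpiLCs and D4PGCLCs overlapped in CPM. Mean levels were 4.35 ± 0.565 CPM in ESCs, 1.94 ± 0.109 in D6PGCLCs, 0.967 ± 0.238 in D4PGCLCs, 0.836 ± 0.0702 in EpiLCs and 0.498 ± 0.132 in D2PGCLCs.

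The fall of *Gata4* from ESCs to EpiLCs was 5.2-fold (log2 -2.37, SE 0.30, edgeR adjusted p = 2.1e-06). All 3 day 2 samples lay below all 3 EpiLC samples, but that difference (log2 -0.75, edgeR adjusted p = 0.0607) and the one from day 2 to day 4 (log2 0.96, edgeR adjusted p = 0.0578) were not called, although the second was without D4PGCLC replicate 1 (1.15). From day 4 to day 6 the gene was called higher at 2.01-fold (log2 1.00, SE 0.29, edgeR adjusted p = 0.0283). This call sat at the fold cutoff. It ended without D4PGCLC replicate 1 (log2 0.81) or replicate 3 (1.07), and without D6PGCLC replicate 2 (0.95) or replicate 3 (1.03), and also without the filter on low counts (1.00) or with only the 2 groups in the fit (1.02). Day 6 was called above EpiLCs (log2 1.21, SE 0.30, edgeR adjusted p = 0.00181) and below ESCs (log2 -1.16, SE 0.28, edgeR adjusted p = 0.00164), with no overlap in either comparison.

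*Sox17* (ENSMUSG00000025902), a SOX factor of primitive and definitive endoderm that is also known from germ cells of other mammals, had 26, 22 and 39 counts in ESCs, 10, 12 and 18 in EpiLCs and 7, 6 and 5 at day 2. It had 16, 30 and 25 counts in D4PGCLCs and 35, 58 and 58 in D6PGCLCs. Day 2 was low in all 3 replicates, and the day 6 and ESC samples were the high ones and overlapped. The order of means was D6PGCLC at 1.28 ± 0.362 CPM, ESC at 1.07 ± 0.202, D4PGCLC at 0.701 ± 0.210, EpiLC at 0.479 ± 0.157 and D2PGCLC at 0.193 ± 0.0373. D4PGCLCs and EpiLCs overlapped as well, while ESCs lay above D4PGCLCs and EpiLCs above D2PGCLCs in every replicate.

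*Sox17* was called lower in EpiLCs than in ESCs, 2.24-fold (log2 -1.16, SE 0.44, edgeR adjusted p = 0.0329). That call ended without ESC replicate 3 (-0.99), EpiLC replicate 1 (-1.01) or EpiLC replicate 2 (-1.02), and without the filter on low counts (-1.17). It was called lower again at day 2 than in EpiLCs, 2.48-fold (log2 -1.30, SE 0.49, edgeR adjusted p = 0.0340), a call that ended without EpiLC replicate 3 (-0.99) or without D2PGCLC replicate 1 (-1.38), 2 (-1.37) or 3 (-1.14). It also ended without the filter on low counts (-1.28) or with only the 2 groups in the fit (-1.29). From day 2 to day 4 it was called higher, 3.63-fold (log2 1.85, SE 0.48, edgeR adjusted p = 0.0175), and this ended without D2PGCLC replicate 1 (1.93), D2PGCLC replicate 3 (1.69) or D4PGCLC replicate 2 (1.62). The step from day 4 to day 6 did not pass the test (log2 0.86, SE 0.41, edgeR adjusted p = 0.185), although all 3 day 6 samples lay above day 4 in CPM. Over the whole induction, day 6 against EpiLCs, *Sox17* was called 2.67-fold higher (log2 1.41, SE 0.43, edgeR adjusted p = 0.00917), and that call was kept whichever library was left out. Against ESCs the difference was 0.25 (edgeR adjusted p = 0.630).

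*Sox7* (ENSMUSG00000063060), a SOX factor of primitive and parietal endoderm, was weak everywhere. It had 8, 4 and 13 counts in ESCs, 4, 12 and 3 in EpiLCs and 17, 17 and 27 at day 2. Its counts were 33, 22 and 41 in D4PGCLCs and 43, 22 and 48 in D6PGCLCs. The 3 PGCLC groups overlapped with each other and lay above ESCs and EpiLCs, which also overlapped. Means were 0.991 ± 0.454 CPM at day 6, 0.945 ± 0.260 at day 4, 0.646 ± 0.148 at day 2, 0.301 ± 0.130 in ESCs and 0.219 ± 0.153 in EpiLCs.

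*Sox7* was the one gene of the 10 called higher at day 2 than in EpiLCs, 2.95-fold (log2 1.52, SE 0.59, edgeR adjusted p = 0.0366). The call ended without EpiLC replicate 1 (1.33) or 3 (1.22) or D2PGCLC replicate 2 (1.57) or 3 (1.33), and without EpiLC replicate 2 the change was 2.27. It also ended without the filter on low counts (1.54) and with the replicate numbers as a block in the fit (1.44). Day 6 lay above EpiLCs 4.52-fold (log2 2.13, SE 0.58, edgeR adjusted p = 0.00413), and the change was 2.88 without EpiLC replicate 2. Above ESCs it lay 3.30-fold (log2 1.68, SE 0.56, edgeR adjusted p = 0.0173), and that call ended without ESC replicate 1 (1.64), ESC replicate 2 (1.42) or D6PGCLC replicate 3 (1.39). Between days 2, 4 and 6 neither step was called, with changes of 0.54 and 0.06.

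The forkhead factor gene *Foxa2* (ENSMUSG00000037025), which acts in visceral and definitive endoderm, had 2, 3 and 0 counts in ESCs, 26, 37 and 25 in EpiLCs and 1, 2 and 1 at day 2. It had 7, 6 and 0 counts in D4PGCLCs and 0, 1 and 2 in D6PGCLCs. The 3 EpiLC samples were high and every other sample was at or near 0. Mean levels were 1.04 ± 0.155 CPM in EpiLCs and 0.131 ± 0.115 in D4PGCLCs, and then 0.0681, 0.0441 and 0.0262 in ESCs, D2PGCLCs and D6PGCLCs, groups that overlapped. Counts summed over the 3 samples put EpiLCs 16.8-fold above ESCs, with a 95% counting interval of 6.94 to 53.1 (edgeR adjusted p = 0.00234). In the same way day 2 lay 24.6-fold below EpiLCs, with an interval of 9.29 to 92.5 (edgeR adjusted p = 0.0010), and day 6 lay 41.6-fold below EpiLCs, with an interval of 13.8 to 205.4 (edgeR adjusted p = 0.000327). Without D6PGCLC replicate 1, whose 0 may not measure absence, day 6 lay 28.2-fold below EpiLCs, with an interval of 9.35 to 139.6. The 3 calls were kept whichever library was left out. The fitted changes themselves, which for so few counts depend on the fit, were 3.94, -4.48 and -5.15, and they became 4.74 without ESC replicate 2, 3.33 without ESC replicate 3 and, for day 6, -6.05 without D6PGCLC replicate 3.

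*Hnf4a* (ENSMUSG00000017950), the nuclear receptor of visceral endoderm and liver, had 116, 95 and 155 counts in ESCs, 14, 27 and 25 in EpiLCs and 3, 2 and 3 at day 2. It had 6, 8 and 7 counts in D4PGCLCs and 69, 18 and 9 in D6PGCLCs. ESCs were high in every replicate and day 2 was near 0. D6PGCLC replicate 1, at 1.81 CPM, lay far above replicates 2 and 3, at 0.396 and 0.255. Means were 4.53 ± 0.575 CPM in ESCs, 0.821 ± 0.861 at day 6, 0.780 ± 0.212 in EpiLCs, 0.208 ± 0.0302 at day 4 and 0.0845 ± 0.0112 at day 2, and of these neighbours only day 6 and EpiLCs overlapped. Without D6PGCLC replicate 1 the day 6 mean was 0.326 CPM (n = 2), which put day 6 below EpiLCs.

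The fall of *Hnf4a* from ESCs to EpiLCs was 5.81-fold (log2 -2.53, SE 0.52, edgeR adjusted p = 0.000434). From EpiLCs to day 2 summed counts fell 9.24-fold, with a 95% counting interval of 4.43 to 22.3 (edgeR adjusted p = 0.000854). Day 4 then lay 2.44-fold above day 2 in summed counts, with an interval of 1.04 to 6.36, and was not called (edgeR adjusted p = 0.341). The call of a rise from day 4 to day 6 (log2 1.96, SE 0.59, edgeR adjusted p = 0.0350) rested on D6PGCLC replicate 1, since without it the change was 0.66 (edgeR adjusted p = 0.394). That call also ended without D4PGCLC replicate 1 (1.87), 2 (2.07) or 3 (1.93), and with the replicate block (1.82). Day 6 against EpiLCs gave 0.07 (edgeR adjusted p = 0.923), and -1.23 (edgeR adjusted p = 0.0140) without D6PGCLC replicate 1. Below ESCs the day 6 level lay 5.51-fold (log2 -2.46, SE 0.51, edgeR adjusted p = 0.000456), and the change was -3.75 without that sample.

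Promoter sequence was read for these 2 genes and for *Dab2*, described next, because each changed over the samples and each had a window with GATA letters. The windows are from RefSeq on GRCm38.p6, 250 bases before to 50 after a transcription start. Those searched covered 6 of the 10 genes, with 10 windows in all. No window of *Sox17*, *Sox7*, *Gata4* or *Gata6* was searched. This does not show that RefSeq has no entry for these genes, and nothing is said here of their promoters. The GATA letters searched on both strands were AGATAA or AGATAG or TGATAA or TGATAG, found in 29.8% of 32851 promoters and in 3 of the 10 windows. The SOX letters ACAATG or ACAAAG were in 28.6% of promoters and 2 of the 10 windows, and the FOXA letters TGTTTAC or TGTTTGC in 8.48% and 1 window, that of *Afp*. Below, 5′ to 3′ on the strand of the gene, capitals mark every GATA or SOX match, on either strand. *Foxa2* is at chr2:148045415-148045714 (minus strand), *Hnf4a* at chr2:163506607-163506906 (plus strand) and *Dab2* at chr15:6299539-6299838 (plus strand).
Foxa2: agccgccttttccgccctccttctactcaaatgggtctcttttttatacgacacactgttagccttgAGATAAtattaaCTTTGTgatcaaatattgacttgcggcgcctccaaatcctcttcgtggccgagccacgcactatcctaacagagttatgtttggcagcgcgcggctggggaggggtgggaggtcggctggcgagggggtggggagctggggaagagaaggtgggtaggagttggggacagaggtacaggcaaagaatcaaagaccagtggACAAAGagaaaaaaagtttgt
Hnf4a: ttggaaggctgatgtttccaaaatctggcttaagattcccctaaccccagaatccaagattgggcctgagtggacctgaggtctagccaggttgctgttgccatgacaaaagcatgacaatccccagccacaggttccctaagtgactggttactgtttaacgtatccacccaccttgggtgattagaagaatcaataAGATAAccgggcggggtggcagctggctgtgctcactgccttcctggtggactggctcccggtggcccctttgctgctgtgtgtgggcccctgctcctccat
Dab2: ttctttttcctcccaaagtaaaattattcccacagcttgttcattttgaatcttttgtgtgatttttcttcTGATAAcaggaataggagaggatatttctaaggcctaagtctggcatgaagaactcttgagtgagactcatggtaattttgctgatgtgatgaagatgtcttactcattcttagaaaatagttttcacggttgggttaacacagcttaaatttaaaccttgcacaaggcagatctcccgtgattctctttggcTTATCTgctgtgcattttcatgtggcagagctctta
The *Foxa2* window holds AGATAA at -183 from the start, and SOX letters at -171 (as CTTTGT, the other strand) and at 29. The *Hnf4a* window holds AGATAA at -52, and the *Dab2* window TGATAA at -179 and, on the other strand, TTATCT at 14. The other *Foxa2*, *Hnf4a* and *Dab2* windows held no match. Such matches are letters in a sequence and say nothing of binding.

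The endocytic adaptor gene *Dab2* (ENSMUSG00000022150) had 9, 7 and 12 counts in ESCs, 274, 243 and 257 in EpiLCs and 197, 129 and 181 at day 2. It had 235, 107 and 272 counts in D4PGCLCs and 439, 371 and 468 in D6PGCLCs. ESCs were low in all 3 replicates and the other 12 samples were all well above them, with D4PGCLC replicate 2 the lowest of the 12. In mean level the order was D6PGCLC at 11.0 ± 2.59 CPM, EpiLC at 9.30 ± 1.25, D4PGCLC at 6.04 ± 2.47, D2PGCLC at 5.36 ± 0.709 and ESC at 0.346 ± 0.0499. D6PGCLCs overlapped with EpiLCs and D4PGCLCs with D2PGCLCs. This was the one gene of the 10 to be high from EpiLCs onward, and its mean at day 6 was 10.7 CPM without D6PGCLC replicate 1.

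*Dab2* rose 26.9-fold from ESCs to EpiLCs (log2 4.72, SE 0.35, edgeR adjusted p = 1.92e-09). Day 2 lay below EpiLCs in all 3 replicates (log2 -0.79, SE 0.26, edgeR adjusted p = 0.0148) and day 6 above day 4 in all 3 (log2 0.86, SE 0.25, edgeR adjusted p = 0.0319), both under the fold cutoff and so not called. The second was called without D4PGCLC replicate 3 (1.08) or D6PGCLC replicate 2 (1.03). The net difference of day 6 from EpiLCs was 0.24 (edgeR adjusted p = 0.430), and that from ESCs was 31.8-fold (log2 4.96, SE 0.35, edgeR adjusted p = 1.17e-09).

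*Cubn* (ENSMUSG00000026726), the receptor that works with this adaptor in visceral endoderm, was weak. It had 7, 3 and 1 counts in ESCs, 20, 39 and 41 in EpiLCs and 3, 0 and 17 at day 2. Its counts were 0, 7 and 4 in D4PGCLCs and 15, 9 and 3 in D6PGCLCs. The 3 EpiLC samples were high and the other groups overlapped with each other, with D2PGCLC replicate 3 at 17 counts and D6PGCLC replicate 1 at 15 the highest among them. The EpiLC mean was 1.18 ± 0.379 CPM, and the others were 0.226 ± 0.156 at day 6, 0.201 ± 0.272 at day 2, 0.140 ± 0.111 in ESCs and 0.108 ± 0.106 at day 4. *Gm13270*, a transcript on the other strand that shares 368 bp of exon with *Cubn*, had 11, 13 and 6 counts at day 6 and at most 3 in the other 12 samples.

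*Cubn* was called 8.45-fold higher in EpiLCs than in ESCs (log2 3.06, SE 1.00, edgeR adjusted p = 0.0156). The call ended without ESC replicate 2 (3.02) or 3 (2.58), and without ESC replicate 1 the change was 3.85. At day 2 it was called 5.90-fold below EpiLCs (log2 -2.50, SE 0.94, edgeR adjusted p = 0.0321). This ended without EpiLC replicate 2 (-2.44) or 3 (-2.30) or D2PGCLC replicate 1 (-2.16) or 2 (-1.95), and became -4.50 without D2PGCLC replicate 3. At day 6 it was called 5.24-fold below EpiLCs (log2 -2.37, SE 0.92, edgeR adjusted p = 0.0348). That call ended without EpiLC replicate 2 (-2.30) or 3 (-2.16) or D6PGCLC replicate 2 (-2.28) or 3 (-1.99) and with the replicate block (-2.30). Without D6PGCLC replicate 1 it was kept, at -2.99 (edgeR adjusted p = 0.0202).

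*Afp* (ENSMUSG00000054932), the secreted protein of visceral endoderm and fetal liver, had 1, 0 and 0 counts in ESCs, 0, 2 and 2 in EpiLCs and 2, 0 and 0 at day 2. It had 0, 3 and 4 counts in D4PGCLCs and 0, 3 and 3 in D6PGCLCs. No group was high, the groups overlapped, and no change was detectable at this depth. Without D6PGCLC replicate 1 the day 6 mean was 0.0755 CPM. With all samples the highest group mean, at day 4, was 0.0683 CPM.

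*Pdgfra* (ENSMUSG00000029231), the PDGF receptor found on primitive endoderm and later on mesenchyme, had 46, 40 and 24 counts in ESCs, 25, 48 and 51 in EpiLCs and 14, 20 and 13 at day 2. It had 11, 23 and 30 counts in D4PGCLCs and 51, 100 and 64 in D6PGCLCs. Days 2 and 4 were low and overlapped, and day 6, EpiLCs and ESCs were higher on average and overlapped. Means were 1.78 ± 0.431 CPM at day 6, 1.47 ± 0.467 in EpiLCs, 1.41 ± 0.527 in ESCs, 0.628 ± 0.269 at day 4 and 0.512 ± 0.178 at day 2, and each neighbour in this order overlapped with the next. *Pdgfra* was called 2.87-fold lower at day 2 than in EpiLCs (log2 -1.53, SE 0.45, edgeR adjusted p = 0.00801), a call kept whichever library was left out. It was called 2.84-fold higher at day 6 than at day 4 (log2 1.5, SE 0.43, edgeR adjusted p = 0.0288). That call ended without D4PGCLC replicate 1 (1.19) or 2 (1.57) or D6PGCLC replicate 2 (1.31) or 3 (1.49) and with only the 2 groups in the fit (1.51), and was kept at 1.67 without D6PGCLC replicate 1. Day 6 differed from EpiLCs by 0.28 (edgeR adjusted p = 0.580) and from ESCs by 0.35 (edgeR adjusted p = 0.502).

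**Figure D2:**
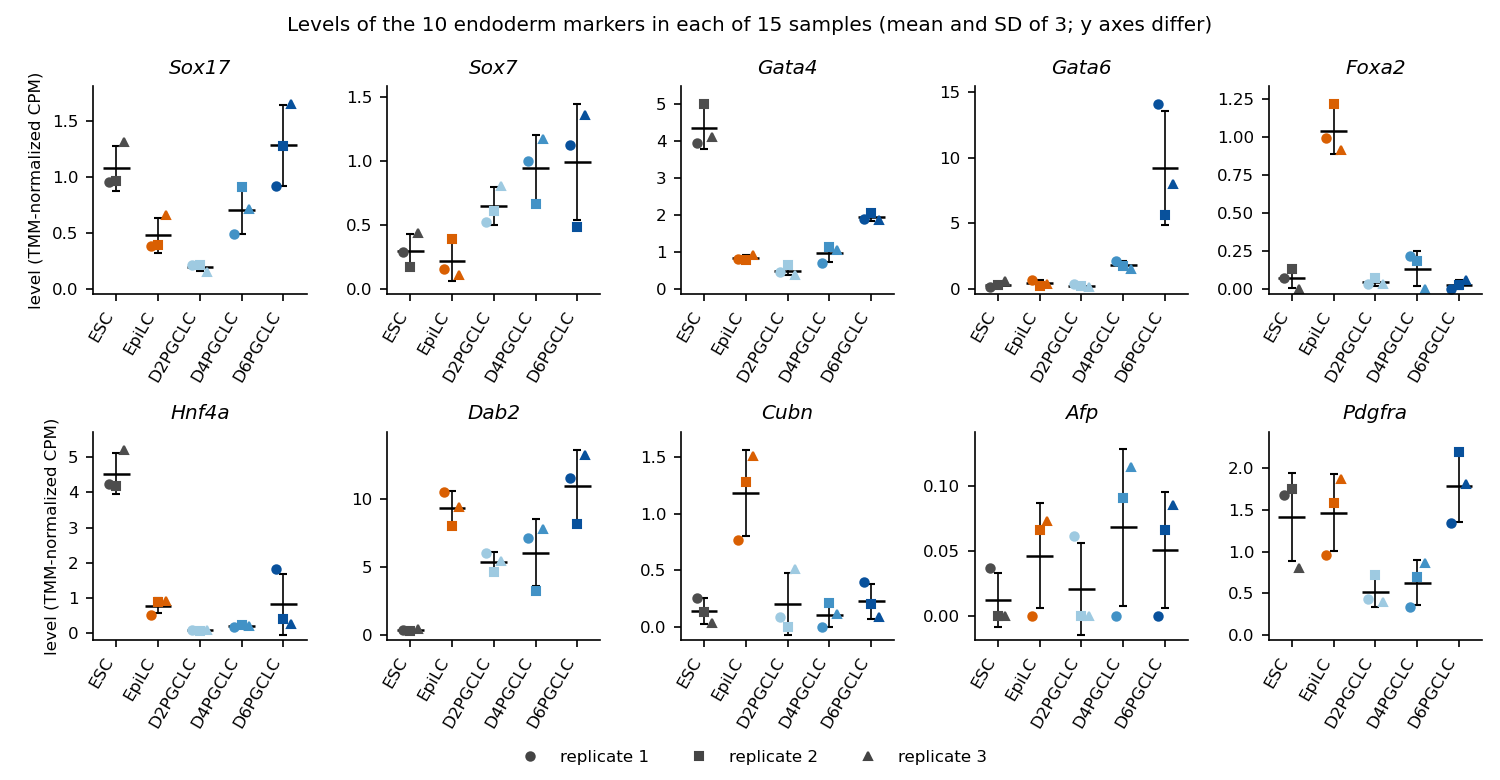
Level of each of the 10 genes in CPM in the 15 samples, with circles, squares and triangles for replicates 1, 2 and 3 and bars for the mean and SD of each group. ESCs are grey, EpiLCs orange and PGCLCs light to dark blue from day 2 to day 6. *Gata4* and *Hnf4a* are highest in ESCs, *Foxa2* and *Cubn* in EpiLCs and *Gata6* at day 6.

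In the plot of levels by sample the 10 genes fall into several courses. *Gata4* and *Hnf4a* were highest in ESCs, *Foxa2* and *Cubn* in EpiLCs, *Gata6* at day 6, and *Dab2* was high from EpiLCs on. Summed over the 10, the level was 12.5 ± 0.567 CPM in ESCs, 15.8 ± 1.00 in EpiLCs, 7.80 ± 0.592 at day 2, 11.6 ± 2.26 at day 4 and 27.4 ± 6.35 at day 6. In single samples the sum was 33.1, 20.5 and 28.4 CPM at day 6, all above the 16.8 CPM of the highest other sample. By CPM *Dab2* gave the largest share of it in every EpiLC and PGCLC sample but D6PGCLC replicate 1, where *Gata6* did.

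Levels of different genes were set against each other per kilobase of exon. *Gata4* at 1.11 and *Hnf4a* at 0.938 CPM per kb were the most abundant of the 10 in ESCs, and *Dab2* at 1.27 and *Foxa2* at 0.440 in EpiLCs. *Dab2* led at day 2 with 0.730 CPM per kb, followed by *Sox7* at 0.196, and at day 4 with 0.823, followed by *Sox7* at 0.287 and *Gata6* at 0.277. At day 6 *Dab2* stood at 1.5 and *Gata6* at 1.42 CPM per kb, and at 2.36 and 2.44 with the longest transcript as the length. This rested on D6PGCLC replicate 1. Without it *Dab2* was ahead by both lengths, at 1.46 against 1.05 and at 2.30 against 1.80 CPM per kb. The order of *Sox7* and *Gata6* at day 4 also changed with the longest transcript, with *Gata6* at 0.477 and *Sox7* at 0.287 CPM per kb.

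From ESCs to EpiLCs, the step from naive to formative cells, 3 of the 10 genes (9 tested) were called higher (*Foxa2*, *Dab2*, *Cubn*), against 14.4% of all genes tested, and 3 lower (*Sox17*, *Gata4*, *Hnf4a*), against 11.9%. Both shares lie above those of all genes, and the median change of the 9 was 0.07 against -0.01 for all genes. The count higher was 2 without ESC replicate 2 or 3. The count lower was 2 without ESC replicate 3 or EpiLC replicate 1 or 2, and also without the filter on low counts. From EpiLCs to day 2, when the transgenes were switched on, 1 was called higher (*Sox7*), against 11.0% of all genes, so this share is near that of all genes. In the same step 5 of the 10 were called lower (*Sox17*, *Foxa2*, *Hnf4a*, *Cubn*, *Pdgfra*), against 14.4%, and the median change was -1.30 against 0.00. Without EpiLC replicate 3, D2PGCLC replicate 1 or D2PGCLC replicate 2 the count called lower was 3, and without EpiLC replicate 1 or 3 or D2PGCLC replicate 2 or 3 the count called higher was 0.

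From day 2 to day 4, the middle of induction, 2 of the 10 were called higher (*Sox17*, *Gata6*), against 2.56% of all genes, and 0 were called lower, against 0.376%. By edgeR 0 of the 9 fell at an unadjusted p under 0.05 either, and by DESeq2 0 were called lower. The share called higher lies above that of all genes, and the median change was 0.96 against 0.02. Without D2PGCLC replicate 1, D2PGCLC replicate 3 or D4PGCLC replicate 2 the count called higher was 1, that of *Gata6*, and without D4PGCLC replicate 1 it was 3, with *Gata4*. From day 4 to day 6, 4 of the 10 were called higher (*Gata4*, *Gata6*, *Hnf4a*, *Pdgfra*), against 2.29%, and 0 lower, against 0.785%, with 0 lower again by edgeR at an unadjusted p under 0.05 and by DESeq2. The share called higher again lies above that of all genes, and the median change was 1.00 against -0.01. The count of 4 was 3 without D6PGCLC replicate 1, which took out *Hnf4a*. It was 1 without D4PGCLC replicate 1, and 2 without D4PGCLC replicate 2 or D6PGCLC replicate 3, while *Gata6* kept its call without any of the 6 libraries of these groups.

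Over the whole course, day 6 against EpiLCs gave 4 of the 10 called higher (*Sox17*, *Sox7*, *Gata4*, *Gata6*), against 15.9% of all genes, and 2 lower (*Foxa2*, *Cubn*), against 12.0%. Both shares lie above those of all genes, and the median change was 0.28 against 0.03. The count lower was 1, without *Cubn*, when EpiLC replicate 2 or 3 or D6PGCLC replicate 2 or 3 was left out, and also with the replicate block. A count of 1 is near the share of all genes (12.0%). Without D6PGCLC replicate 1 the count lower was 3, with *Hnf4a*. Day 6 against ESCs, the start of the culture, gave 3 higher (*Sox7*, *Gata6*, *Dab2*), against 15.8%, and 2 lower (*Gata4*, *Hnf4a*), against 10.3%, with a median of 0.35 against 0.00. These shares too lie above those of all genes. The count higher was 2, without *Sox7*, when ESC replicate 1 or 2 or D6PGCLC replicate 3 was left out. The count lower was 2 whichever library was left out. The genes called at day 6 thus differed with the reference, and *Sox7* and *Gata6* were above both.

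**Figure D3:**
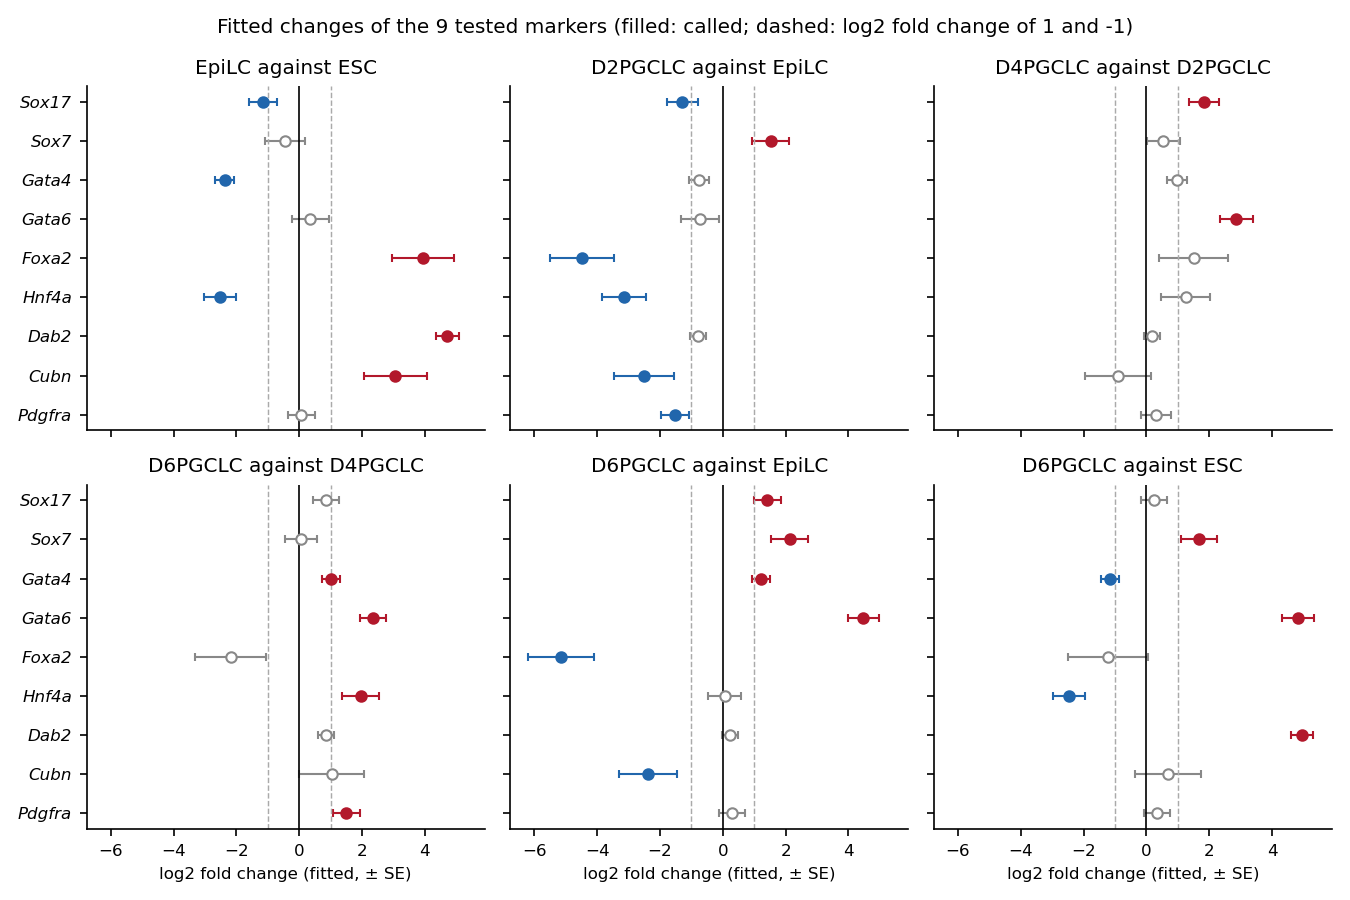
Log2 fold change of each tested gene in the 6 comparisons, with the SE as error bars and dashed lines at 1 and -1. Red marks genes called higher, blue genes called lower and open grey genes not called, and *Gata6* has the largest rise from day 2 to day 4 and from day 4 to day 6.

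The plot of changes sets these comparisons side by side. For the lists that follow, the shares of all genes called higher and lower were 14.4% and 11.9% from ESCs to EpiLCs, 11.0% and 14.4% from EpiLCs to day 2, 2.56% and 0.376% from day 2 to day 4, and 2.29% and 0.785% from day 4 to day 6. Other regulators of extraembryonic endoderm were followed as a list of 10 genes, of which 8 were tested. From ESCs to EpiLCs 1 was called higher and 5 lower, with a median change of -1.19 against -0.01 for all genes. The 1 called higher is near the share of all genes (14.4%). This gene, *Foxa1*, was lost by DESeq2 and when ESC replicate 2 or 3 or any 1 EpiLC replicate was left out. Without EpiLC replicate 2 the count lower was 3. From EpiLCs to day 2, 0 were called higher, with 1 by edgeR at an unadjusted p under 0.05 and 0 called by DESeq2, and 2 lower. These were *Foxa1* (log2 -1.64), kept whichever library was left out, and *Sox18*, lost without EpiLC replicate 1 or 2 or D2PGCLC replicate 2 or 3. From day 4 to day 6, 2 were called higher (*Foxa1*, *Cited1*) and 0 lower, with 0 lower also by edgeR at an unadjusted p under 0.05 and by DESeq2. Without D6PGCLC replicate 2 the count lower there was 1. Between day 2 and day 4 edgeR and DESeq2 each called 0 in either direction, with 3 higher and 0 lower by edgeR at an unadjusted p under 0.05, and 1, *Hhex*, was called higher without D2PGCLC replicate 1 or D4PGCLC replicate 1 or 2. The list summed to 20.9, 20.8 and 19.3 CPM in ESCs, and to 17.9, 12.9 and 12.3 at day 6, where *Hhex* was the most abundant.

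*Foxa1*, a forkhead factor close to *Foxa2*, had 13, 6 and 8 counts in ESCs, 21, 24 and 17 in EpiLCs and 9, 7 and 6 at day 2. It had 27, 11 and 18 counts in D4PGCLCs and 97, 71 and 67 in D6PGCLCs. Day 6 was high in every replicate and overlapped with no other group, which *Foxa2*, near 0 at day 6, did not share. *Foxa1* rose 3.61-fold from day 4 to day 6 (log2 1.84, SE 0.42, edgeR adjusted p = 0.00841), and the call was kept whichever library was left out. *Hhex*, a homeobox gene of anterior visceral and definitive endoderm, had 34, 28 and 31 counts in EpiLCs and 270, 248 and 193 in D6PGCLCs. These groups lay far apart in every replicate (log2 2.42, SE 0.27, edgeR adjusted p = 3.53e-07). *Cited1* had 80, 43 and 79 counts in ESCs, 15, 13 and 10 at day 4 and 33, 68 and 38 at day 6, above every day 4 sample and below every ESC sample in CPM. Its rise from day 4 (log2 1.60, SE 0.43, edgeR adjusted p = 0.0201) lost its call without D4PGCLC replicate 2 (1.63) or 3 (1.43) or D6PGCLC replicate 2 (1.35), and with only the 2 groups in the fit.

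Of 16 genes for uptake and secretion in visceral endoderm, beside *Cubn*, *Dab2* and *Afp*, 9 were tested. *Ttr*, *Apoc2*, *Spink1* and *Fgb*, which encode secreted proteins, had 3 counts or fewer in every sample, and *Apoa4* at most 4. The list summed to 1103, 953.1 and 1196 CPM in ESCs, 648.4, 562.3 and 597.5 in EpiLCs, 786.2, 779.5 and 862.7 at day 2, 718.7, 765.9 and 974.3 at day 4 and 1033, 753.1 and 913.4 at day 6. *Apoe*, which many cell types express, gave most of this sum in PGCLCs and ESCs. From ESCs to EpiLCs 3 genes were called higher and 2 lower, from EpiLCs to day 2, 1 higher and 3 lower, and in each of the 2 later steps 2 higher and 0 lower. For those 2 zeros edgeR had 0 and 2 genes lower at an unadjusted p under 0.05, and DESeq2 called 0 and 1. From day 4 to day 6, 1 was called lower without D6PGCLC replicate 2 (*Amn*). The 1 called higher from EpiLCs to day 2 is near the share of all genes (11.0%).

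In both later steps 1 of the 2 genes called higher was *Apob*, with 12, 4 and 12 counts at day 2, 25, 31 and 22 at day 4 and 52, 89 and 73 at day 6. From day 2 to day 4 its call (log2 1.38) was lost whichever of the 6 libraries was left out (1.08 to 1.58) and without the filter on low counts, so that only *Apom* remained. From day 4 to day 6 it was lost when any 1 D4PGCLC replicate or D6PGCLC replicate 2 or 3 was left out (1.08 to 1.37). The other gene called there was *Rbp4* (log2 1.16), lost without D4PGCLC replicate 1 (0.96) or 2 (1.14) or D6PGCLC replicate 3 (1.06), and with any 1 of these 3 libraries left out none of the list was called higher.

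*Lrp2* encodes megalin, the receptor that binds cubilin and is taken up with DAB2. It had 282, 223 and 392 counts in ESCs, 5570, 7102 and 5940 in EpiLCs and 684, 365 and 665 at day 2. Its counts were 684, 507 and 448 in D4PGCLCs and 1194, 933 and 1010 in D6PGCLCs. EpiLCs were far above every other sample, as for *Cubn*, and ESCs overlapped in CPM with days 2 and 4 at the low end. *Lrp2* rose 20.0-fold from ESCs to EpiLCs (log2 4.32, SE 0.20, edgeR adjusted p = 3.69e-12) and fell 12.3-fold from EpiLCs to day 2 (log2 -3.62, SE 0.20, edgeR adjusted p = 2.82e-11), a larger fall than that of *Dab2* (log2 -0.79), which was not called. *Apom*, an apolipoprotein gene, had 13, 11 and 20 counts at day 2 and 34, 74 and 56 at day 4, with no overlap (log2 1.79, SE 0.35, edgeR adjusted p = 0.00263). *Rbp4*, the secreted retinol carrier, had 24, 21 and 24 counts in EpiLCs and 119, 134 and 129 at day 6, also without overlap (log2 1.97, SE 0.36, edgeR adjusted p = 0.00011).

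All 13 genes of parietal endoderm and basement membrane were tested, a list that many adherent cells express. From ESCs to EpiLCs 3 were called higher and 3 lower, from EpiLCs to day 2, 2 higher and 5 lower, from day 2 to day 4, 1 in each direction, and from day 4 to day 6, 2 higher and 1 lower. The 2 higher at day 2 are near the share of all genes (11.0%). In the 2 later steps the genes called lower were *Thbd*, then *Fst*. *Thbd*, which encodes thrombomodulin, had 4, 10 and 8 counts in EpiLCs, 59, 80 and 82 at day 2 and 19, 29 and 16 at day 4, so that day 2 was its peak (log2 3.17 from EpiLCs, then -1.90, edgeR adjusted p = 0.00618). *Fst* had 336, 284 and 331 counts in ESCs, 128, 131 and 65 in EpiLCs, 15, 11 and 41 at day 4 and 0, 10 and 8 at day 6 (log2 -2.10 from day 4, edgeR adjusted p = 0.0394). That call was lost without D6PGCLC replicate 1 (-1.54) or 3 (-2.44) or D4PGCLC replicate 3 (-1.36). Without D4PGCLC replicate 3 *Fst* was also called lower from day 2 to day 4, for a count of 2, and without it or D2PGCLC replicate 2 the count higher in that step was 2. At day 2 *Plat* (log2 -2.31) and *Krt8* (log2 -1.99) were among the 5 called lower than in EpiLCs. *Col4a2*, a chain of collagen IV, had 197, 198 and 183 counts in D4PGCLCs and 660, 846 and 565 in D6PGCLCs. *Col4a1*, its partner chain, had 411, 493 and 308 counts at day 4 and 1056, 1556 and 938 at day 6. For both genes every day 6 sample lay above every day 4 sample. The changes were 1.60 for *Col4a2* (SE 0.19, edgeR adjusted p = 3.8e-05) and 1.30 for *Col4a1* (SE 0.16, edgeR adjusted p = 6.39e-05). *Nid1*, which links laminin and collagen IV, had 1369, 1072 and 1389 counts at day 2 and 2960, 2810 and 2827 at day 4, again with no overlap (log2 1.07, SE 0.10, edgeR adjusted p = 4.65e-06). *Lamc1* was the most abundant of the list by CPM in every sample and was not called in either step. The list summed to 772.4, 746.4 and 689.9 CPM at day 6, above every day 2 and day 4 sample, which lay between 496.1 and 615.6, and below every ESC sample, at 1023 to 1059.

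Of 11 genes of definitive endoderm and mesendoderm, 10 were tested. From ESCs to EpiLCs 1 was called higher and 4 lower, from EpiLCs to day 2, 3 higher and 2 lower, from day 2 to day 4, 1 in each direction, and from day 4 to day 6, 0 higher and 2 lower. For that 0 edgeR had 0 higher at an unadjusted p under 0.05 and DESeq2 called 0. The 1 higher in EpiLCs than in ESCs and the 2 lower at day 2 are near the shares of all genes (14.4% in each). Without EpiLC replicate 1 or 3 the count higher in EpiLCs than in ESCs was 2, and without D2PGCLC replicate 2 the count lower at day 2 was 5. The list summed to 936.8, 988.5 and 1000 CPM in EpiLCs and to 172.7, 282.2 and 164.7 at day 6, and *Tdgf1* was the most abundant gene in every sample. *Tdgf1*, a coreceptor gene of NODAL signaling, fell from a mean of 656 CPM in EpiLCs to 155 at day 2 (log2 -2.08, edgeR adjusted p = 5.89e-06). *Trh*, a hormone gene, fell in every step, with means of 452.6 CPM in ESCs, 220.1 in EpiLCs, 47.6 at day 2, 12.9 at day 4 and 4.70 at day 6. Its changes were -2.21, -1.89 and -1.44 in the 3 steps from EpiLCs on, and day 6 against EpiLCs -5.53 (SE 0.23, edgeR adjusted p = 8.33e-13). The call of its fall from ESCs to EpiLCs (-1.04) was lost without EpiLC replicate 2 (-0.94).

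*T*, the mesendoderm factor brachyury, had 405, 346 and 434 counts in ESCs and at most 11 in any EpiLC or PGCLC sample. *Lhx1*, a LIM homeobox gene, had 171, 152 and 91 counts at day 2, 435, 333 and 401 at day 4 and 222, 195 and 202 at day 6. It was highest at day 4 in every replicate, with changes of 1.37 from day 2 (SE 0.26, edgeR adjusted p = 0.00247) and -1.13 to day 6 (SE 0.26, edgeR adjusted p = 0.00813), unlike *Gata6*, which was highest at day 6. *Cxcr4*, a chemokine receptor gene shared by definitive endoderm and germ cells, had 22, 60 and 29 counts in EpiLCs and 268, 308 and 297 at day 2, with no overlap (log2 2.84, SE 0.26, edgeR adjusted p = 4.02e-08).

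Genes of FGF and PDGF signaling to primitive endoderm were tested in full, 9 of 9. From ESCs to EpiLCs 2 were called higher and 1 lower, and from EpiLCs to day 2, 1 higher and 3 lower. The 1 lower in the first step and the 1 higher in the second are near the shares of all genes (11.9% and 11.0%). From day 2 to day 4, 0 were called higher by edgeR, with 1 at an unadjusted p under 0.05 and 1 called by DESeq2, and 1 (*Fgfr2*) lower. Without D2PGCLC replicate 2 edgeR too called 1 higher. *Pdgfa*, which encodes a ligand of PDGFRA, had 2332, 1748 and 2035 counts in ESCs, 528, 441 and 356 in EpiLCs and 1558, 1525 and 1321 at day 2. It had 1589, 1755 and 1681 counts in D4PGCLCs and 1882, 2233 and 1252 in D6PGCLCs. EpiLCs were low in every replicate. The ligand rose from EpiLCs to day 2 (log2 1.57, SE 0.16, edgeR adjusted p = 1.48e-07), the step in which its receptor *Pdgfra* fell. *Fgfr2*, an FGF receptor gene, had 21, 13 and 19 counts in ESCs, 1183, 989 and 828 in EpiLCs, 2022, 1871 and 1713 at day 2, 967, 799 and 829 at day 4 and 593, 684 and 571 at day 6. It rose from ESCs to EpiLCs (log2 5.76, SE 0.21, edgeR adjusted p = 6.69e-14) and was highest at day 2, at a mean of 60.1 CPM against 36.0 in EpiLCs, with no overlap. It then fell to day 4 (log2 -1.23, SE 0.14, edgeR adjusted p = 3.45e-05), and day 6 lay below EpiLCs (log2 -1.21, SE 0.14, edgeR adjusted p = 7.49e-07). From day 4 to day 6 edgeR called 0 of the 9 in either direction, with 2 higher and 4 lower at an unadjusted p under 0.05, and DESeq2 called 0. The median change from day 4 to day 6 was 0.61 for the other regulators, 0.41 for uptake and secretion, 0.42 for basement membrane, -0.44 for definitive endoderm and -0.15 for FGF and PDGF signaling, against -0.01 for all genes.

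Markers of other cell types were summed in the same way, because *Pdgfra*, *Dab2*, *Gata4* and *Gata6* are also expressed outside endoderm. The PGCLC samples had been sorted as Stella-eGFP+ cells, while ESCs and EpiLCs were not described as sorted. The 9 mesoderm markers summed to 5.69, 3.16 and 3.58 CPM in ESCs, 7.11, 5.59 and 6.13 in EpiLCs and 3.89, 3.04 and 2.88 at day 2. They summed to 5.54, 8.64 and 7.33 CPM at day 4 and 18.7, 20.8 and 14.7 at day 6. Day 6 was above every other sample, mostly through *Hand1*. The other 8 markers summed to 5.28, 4.93 and 4.70 CPM at day 6, above days 2 (1.65 to 2.45) and 4 (2.61 to 4.43) and within the range of ESCs and EpiLCs (2.80 to 6.00), and at day 6 *Nkx2-5* was called higher than in EpiLCs (log2 3.36), as *Hand1* was, and *Meox1* lower (log2 -3.17). *Hand1*, a factor of lateral and extraembryonic mesoderm and of trophoblast, was the most abundant of these markers in all 9 PGCLC samples. It had 47, 39 and 29 counts at day 2, 97, 140 and 133 at day 4 and 510, 719 and 352 at day 6, without overlap, and rose in both steps (log2 1.57, edgeR adjusted p = 0.00215, then 1.84, edgeR adjusted p = 0.000279). Of the 5 mesoderm markers tested, 2, *Hand1* and *Twist1*, were called higher from day 2 to day 4 and 1, *Hand1*, from day 4 to day 6. The call of *Twist1* (log2 1.06) was lost whichever of the 6 libraries was left out (0.94 to 1.23), without the filter on low counts and with only the 2 groups in the fit, so that the count became 1. No mesoderm marker was at 3 counts or fewer in all 15 samples. The part of such cells in the rise of *Gata6*, *Gata4* and *Pdgfra* was not tested.

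Trophoblast markers, 7 genes that share *Hand1* and *Eomes* with other lists, summed to 21.6, 24.8 and 26.0 CPM in ESCs, 13.4, 12.9 and 13.1 in EpiLCs and 23.6, 27.7 and 21.7 at day 2. They summed to 28.9, 37.7 and 28.9 CPM at day 4 and 30.4, 37.5 and 30.2 at day 6. The defining markers *Prl3d1* and *Tpbpa* had 3 counts or fewer in all 15 samples, and *Eomes* was the most abundant in every sample but D6PGCLC replicate 1, where *Hand1* was. *Krt7*, another of the 7, had 1, 0 and 2 counts in ESCs and 135, 108 and 138 in EpiLCs and remained high to day 6, the course of *Dab2*, which the sum does not show. Of the 5 tested, *Elf5*, *Eomes* and *Hand1* were called higher at day 6 than in EpiLCs and *Cdx2* lower, and *Elf5*, *Krt7* and *Hand1* were called higher than in ESCs and *Cdx2* lower. Against EpiLCs *Cdx2* lost its call without EpiLC replicate 1 or 3 or D6PGCLC replicate 2 or 3, and *Eomes* without EpiLC replicate 1 or D6PGCLC replicate 2. *Elf5* had 0, 1 and 0 counts in ESCs, 0, 4 and 0 in EpiLCs and 31, 44 and 23 at day 6. The part of such cells in the levels of *Gata4*, *Gata6* or *Dab2* was not tested.

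The 9 fibroblast markers summed to 9.63, 9.11 and 10.5 CPM in ESCs and to 27.2, 26.7 and 26.6 in EpiLCs. In PGCLCs they summed to 2.14, 3.94 and 2.07 CPM at day 2, 3.64, 4.46 and 3.44 at day 4 and 4.36, 4.89 and 3.12 at day 6. EpiLCs were the high group, as for *Foxa2* and *Cubn*, and 4 of 6 tested markers were called higher in EpiLCs than in ESCs and 5 of 6 lower at day 2. *Thy1* was the most abundant in ESCs and EpiLCs and *Pdgfrb* in PGCLCs. *Dcn*, a matrix proteoglycan gene, had 0 counts in every ESC sample and 180, 173 and 134 in EpiLCs, at least 51.2-fold higher when each ESC library is set to 3 counts. *Lum* had 3 counts or fewer in all 15 samples. The part of fibroblasts in the EpiLC levels of *Foxa2*, *Cubn* and *Pdgfra* was not tested.

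Endothelial and blood markers, 9 genes, summed to 3.17, 5.13 and 5.29 CPM in ESCs, 12.4, 14.5 and 17.1 in EpiLCs and 15.1, 15.3 and 11.8 at day 2. They summed to 10.9, 8.85 and 10.7 CPM at day 4 and 13.0, 11.3 and 11.1 at day 6. ESCs were low in this sum and the other 4 groups high through *Tek*, the most abundant gene in every EpiLC and PGCLC sample. The other 8 summed to 0.420 to 3.03 CPM in the 9 PGCLC samples, with ESCs at 2.30 to 3.33 and EpiLCs at 3.37 to 6.13. The 0.420 was that of D6PGCLC replicate 1, and without this sample the PGCLC range was 1.26 to 3.03 CPM. *Cdh5* had 0 counts in every ESC sample, 9, 3 and 2 in EpiLCs, 49, 17 and 22 at day 2 and 0, 12 and 0 at day 6. It was called higher at day 2 than in EpiLCs (log2 2.42), a call lost when EpiLC replicate 2 or 3 or any 1 D2PGCLC replicate was left out. *Gata1*, *Tal1* and *Runx1* were called lower at day 2 than in EpiLCs, *Tal1* was called lower at day 6 than in ESCs, and the embryonic globin genes *Hbb-bh1* and *Hba-x* had 3 counts or fewer in all 15 samples. Of the 6 tested, edgeR called 2 higher in EpiLCs than in ESCs and DESeq2 called 3. Both called 0 lower, with 0 lower by edgeR at an unadjusted p under 0.05. The 2 called by edgeR were *Tek* and *Cdh5*, and the count was 1, that of *Tek*, when any 1 ESC replicate or EpiLC replicate 1 was left out. Without *Tek* the sum did not follow the course of *Dab2*. *Cdh5* was called higher from EpiLCs to day 2, the step in which *Sox7* was, while *Gata1*, *Tal1* and *Runx1* were called lower. The part of such cells in the levels of *Dab2* and *Sox7* was not tested. The 6 neuroectoderm markers summed to 76.3 to 88.0 CPM in ESCs, 48.6 to 59.9 in EpiLCs, 19.2 to 27.8 at days 2 and 4 and 38.7 to 46.3 at day 6, and *Nes* was the most abundant in every sample.

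**Figure D4:**
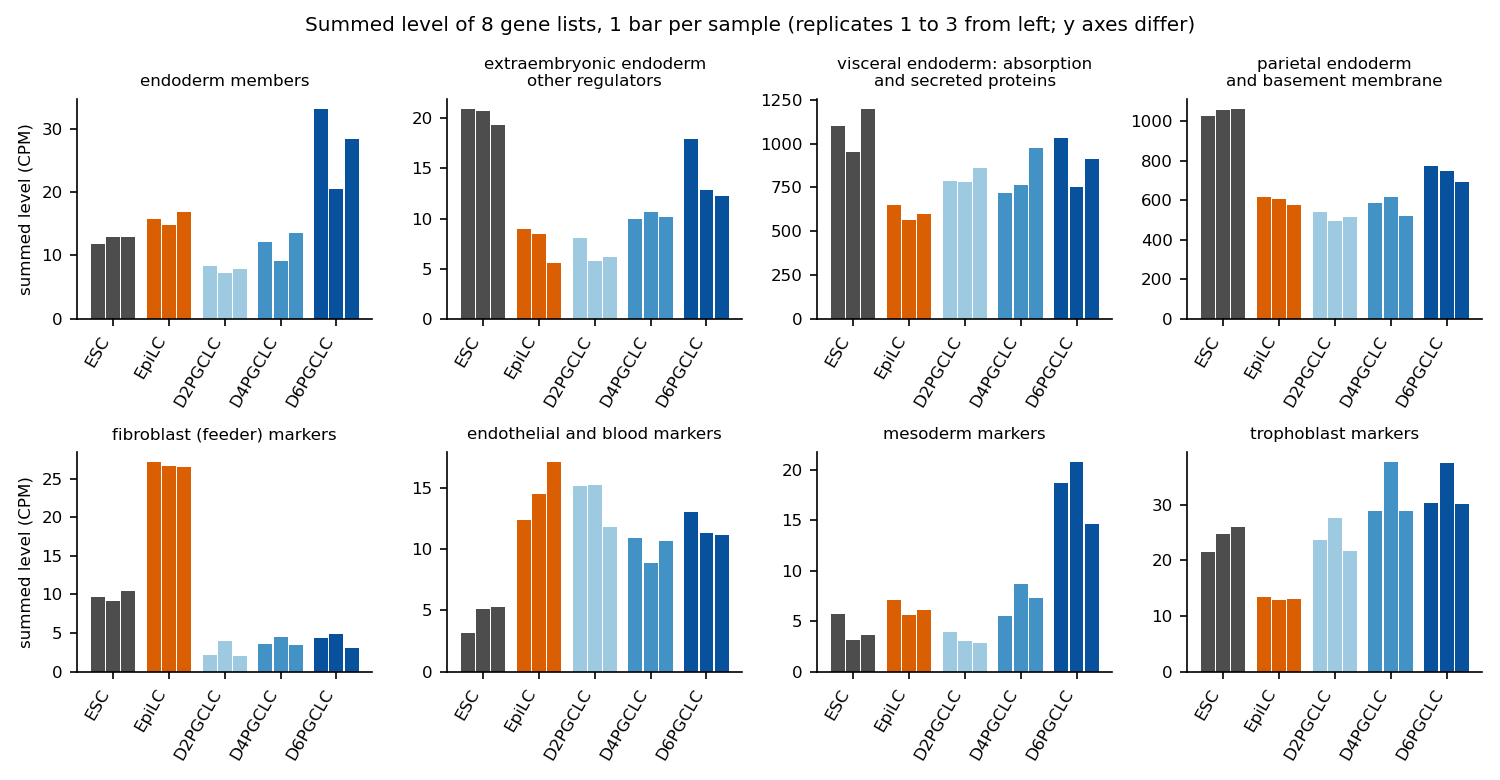
Summed level in CPM of 8 gene lists in the 15 samples, 1 bar per sample with replicates 1, 2 and 3 from left to right (ESCs grey, EpiLCs orange, PGCLCs light to dark blue). Mesoderm markers are highest at day 6, mostly through *Hand1*, which is also on the trophoblast list, and fibroblast markers in EpiLCs.

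The plot of summed lists shows these levels beside the endoderm lists. Genes whose course over the 15 samples was most like each of 7 of the 10, those whose highest group mean was at least 1 CPM and at least 4 times the lowest, were found among 14565 others, by Pearson's r of the logarithm of CPM plus 1. The r values describe 15 samples in 5 groups and carry no test. The rank of the genes named depends on the value added to CPM. With 0.25 in place of 1, *Susd5* ranked first for *Gata6* and *Prune1* for *Cubn*, while *Ndnf* ranked 49 for *Cubn* and *Epha8* 13 for *Foxa2*, and for *Hnf4a* the 3 named genes ranked 5, 10 and 13. *Tmem44* then ranked 11 for *Sox17*, *Efs* 10 for *Dab2* and *Lrch1* 9 for *Gata4*. *Gata6* was most like *Slit3* (r = 0.973), *Susd5* (0.972) and *Gm45598* (0.971), and *Slit3* had mean levels of 2.04 CPM in ESCs and 7.09 at day 6. *Gata4* was most like *Crxos* (0.986), *Glb1* (0.978) and *Lrch1* (0.975), and *Crxos* stood at 134 CPM in ESCs, 1.83 at day 2 and 15.3 at day 6. For *Hnf4a* they were *Cask* (0.965), *2310043M15Rik* (0.964) and *Oas1g* (0.961), all highest in ESCs.

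The genes most like *Sox17* were *Hal* (0.923), *Ppp1r3b* (0.905) and *Tmem44* (0.904). *Hal* had mean levels of 5.60 CPM in ESCs, 0.410 at day 2 and 7.86 at day 6, so that it too was lowest at day 2. *Foxa2* was most like *Rgs2* (0.985), *Clic5* (0.983) and *Epha8* (0.978), and *Clic5* stood at 6.52 CPM in EpiLCs and at most 0.151 in the other groups. *Dab2* was most like *Krt7* (0.974), *Efs* (0.970) and *Mael* (0.969), and *Krt7*, which is one of the 7 trophoblast markers, had 0.0345 CPM in ESCs and 3.15 to 4.59 in the other groups. *Cubn* was most like *Asprv1* (0.933), *Prune1* (0.922) and *Ndnf* (0.913), which were highest in EpiLCs. Among the 10 genes themselves, r was not computed for every pair, and *Foxa2* with *Cubn*, both high in EpiLCs, was left out. Of the pairs computed, *Gata4* and *Hnf4a* had r = 0.876, *Sox17* and *Gata4* 0.767 and *Gata6* and *Sox7* 0.637. *Sox17* and *Pdgfra* had 0.620 and *Gata6* and *Sox17* 0.568, and all of these lie below the values above. Other pairs ran against each other, with r = -0.749 for *Hnf4a* and *Dab2*, -0.705 for *Gata4* and *Dab2* and -0.551 for *Foxa2* and *Sox7*.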

How the data were processed

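Members and lists were chosen with earlier results of these data known. RNA was extracted with TRIzol and made into NEBNext Ultra II Directional libraries. Per the submitters' processing notes, reads were trimmed with Trim Galore, checked with FastQC and aligned to mm10 with STAR, and the authors deposited a raw count per gene. The counting tool, annotation release and strand setting are not given in the sources used here. Symbols came from GENCODE M21. In R 4.3.3, edgeR 4.0.16 (limma 3.58.1) fitted TMM-scaled counts with 1 coefficient per group after filterByExpr (minimum count 10), tested by quasi-likelihood in 6 comparisons with Benjamini-Hochberg adjustment over 18090 genes. Genes were called at an adjusted p under 0.05 and a log2 change beyond 1. SE is the log2 change divided by the square root of F. The fit was tested on simulated data of 2 groups, ESCs and EpiLCs, with changes only in genes of at least 20 expected counts. Weaker genes, such as *Foxa2* and *Cubn*, were outside that test. The replicate numbers paired the day 2 and day 4 samples (r of residual profiles 0.255 to 0.300 for the same number). This comes from the data, and the labels do not give it. Alternatives were DESeq2 1.42.0, its size factors in edgeR, no filter, a replicate block over all samples and, chosen after seeing the data, over PGCLCs alone, only the 2 groups compared, and each library left out. Folds against a group with at most 3 counts per library are ratios of summed counts with exact (Clopper-Pearson) 95% intervals, or, at 0, bounds with 3 counts per library. Intervals and floors cover counting error only. From each of the 5 other endoderm lists, named genes were up to 2 with the highest mean CPM and up to 4 called genes per comparison with the largest change and a mean of at least 20 counts. Others were named after their values were seen. One gene of these lists, counted in the totals, is not reported here. Tables and figures used Python 3.11.15, pandas 2.3.3, NumPy 2.4.6 and matplotlib 3.10.9. Promoters are from RefSeq (GRCm38.p6).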

Additional observations from a re-analysis of the deposited data

How the results depend on the processing

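With counts this low, changes of a few counts decide several calls, and genes near 3 counts cannot be followed below 0.133 CPM. Of the results for single genes and lists under the alternatives, 2855 kept their direction and side of the threshold, 164 lost a call, 3 gained one and 12 changed direction. A further 1 moved in value. Of the counts of calls, 247 stayed within 1.5 times and 25 did not. Of the 10 genes, those called higher at day 2 against EpiLCs numbered 0 without the filter, 0 with the replicate block and 0 to 1 with each library left out in turn. Those called lower there numbered 3 to 5, those called higher at day 4 against day 2 numbered 1 to 3, and those called higher at day 6 against day 4 numbered 1 with only the 2 groups compared and 1 to 3 with a library left out. Those called lower at day 6 against EpiLCs numbered 1 with the block and 1 to 3 with a library left out. Over all genes, those called lower at day 4 against day 2 numbered 34 to 81 with a library left out, and at day 6 against day 4, 78 with only the 2 groups compared and 94 to 218 with a library left out. Changes that were not called took either sign with a library left out. For EpiLCs against ESCs *Gata6* ranged from -0.10 to 1.17 and *Pdgfra* from -0.21 to 0.31. For day 4 against day 2 *Dab2* ranged from -0.054 to 0.47 and *Cubn* from -1.75 to 1.11. For day 6 against day 4 *Sox7* ranged from -0.24 to 0.39. For day 6 against EpiLCs *Hnf4a* ranged from -1.23 to 0.48 and was -0.11 with the block. Where a library was left out, fewer samples were fitted, and otherwise the cause was not tested. The replicate numbers paired the day 2 and day 4 samples: the 3 residual profiles with the same number correlated at r = 0.255 to 0.300, and the 6 others at -0.230 to -0.0555. Between day 6 and these days numbers 2 and 3 did so as well (0.177 to 0.358) and number 1 did not (0.0187 and 0.0601), and no pair of groups with ESCs or EpiLCs had every r over 0.1. The block over all 15 samples ended the calls of *Apob* and *Col1a1* at day 4 against day 2 and of *Hnf4a* and *Apob* at day 6 against day 4. A block of the PGCLC samples alone, chosen after seeing the data, ended no call of the single genes followed in these 2 steps. All genes called higher and lower then numbered 541 and 87 at day 4 against day 2, against 463 and 68 without a block, and 510 and 188 at day 6 against day 4, against 415 and 142.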
